A study of Mus musculus with 6 samples.

Results

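DNA replication and mitosis are run by genes that are most active while a cell divides, and 39 of these were followed here in mouse pancreatic tumours. They were taken by gene symbol, 20 for DNA replication and 19 for mitosis, and all 39 are among the 32285 genes that every library lists. The tumours came from a genetically engineered mouse model of pancreatic cancer that carries P53LSL.R172H/+ and Pdx1-Cre, in which a recombinase driven by a pancreatic promoter switches on mutant p53 in the pancreatic lineage. All 6 libraries, control and treated, come from mice of the same genotype. In 3 libraries the mice had received IPI-926, a blocker of the hedgehog pathway receptor Smoothened, by oral gavage at 40 mg/kg a day for 2 days, and tissue was taken 2 hours after the last dose. In the other 3 the mice had received the vehicle, a cyclodextrin (HPBCD) in water, for 2 days. The ages of the mice are not given in the sources used here. The labels list each library as a sample of its own without saying whether tissue was pooled, so the p-values below measure the spread between these libraries.

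Before a cell divides it copies its DNA, and the replication genes act in that phase. Mcm2 to Mcm7 form the helicase that opens the double helix, Cdc6 loads it, Cdc45 and Gins2 activate it, and Pcna is the sliding clamp that holds the polymerases on DNA. Tyms, Rrm1 and Rrm2 make the nucleotides, Slbp serves the histone mRNAs, Chaf1b places histones on the new DNA, Uhrf1 and Hells keep its methylation, Ung removes uracil, Dtl destroys the licensing factor Cdt1, and E2f8 shuts the programme down. The mitosis genes follow: the kinase Cdk1 with its cyclins Ccna2, Ccnb1 and Ccnb2, the kinases Aurka, Aurkb, Plk1 and Bub1, the spindle proteins Tpx2, Kif11, Kif20a and Nusap1, the kinetochore proteins Cenpe and Cenpf, Birc5 in the complex of Aurkb, Ube2c and Cdc20, which drive the destruction of the cyclins, and the chromosome proteins Top2a and Mki67. In pancreatic tumours, hedgehog ligand from the epithelium is known to act mainly on the surrounding stroma.

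The promoters of the replication and the mitosis genes carry different short DNA elements, which is why 4 of each group are printed here. E2F factors bind sites of the form TTTGGCGC, TTTCGCGC, TTTCCCGC or TTTGCCGC, and the repressor and activator complexes that time mitosis bind the CHR element, TTTGAA or TTCGAA. RefSeq's promoter table (build GRCm38.p6) held 33 of the 39 genes and lacked Tpx2, Mcm4, Gins2, Kif20a, Ccna2 and Aurkb. Each sequence below is the 180 bases before the RefSeq start, 5′ to 3′ on the strand of the gene, with every match on either strand in capitals. The first 4, from Mcm5 (chr8:75109329-75109508, + strand), Mcm6 (chr1:128359706-128359885, - strand), Cdc6 (chr11:98907971-98908150, + strand) and Hells (chr19:38930810-38930989, + strand), hold E2F sites.
Mcm5: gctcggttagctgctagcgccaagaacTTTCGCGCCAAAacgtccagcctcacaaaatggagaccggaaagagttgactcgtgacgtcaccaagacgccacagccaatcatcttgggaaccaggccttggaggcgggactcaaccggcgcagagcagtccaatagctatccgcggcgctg
Mcm6: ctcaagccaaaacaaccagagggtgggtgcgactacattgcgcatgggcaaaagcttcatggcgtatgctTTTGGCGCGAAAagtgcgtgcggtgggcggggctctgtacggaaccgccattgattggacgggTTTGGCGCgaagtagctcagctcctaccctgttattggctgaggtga
Cdc6: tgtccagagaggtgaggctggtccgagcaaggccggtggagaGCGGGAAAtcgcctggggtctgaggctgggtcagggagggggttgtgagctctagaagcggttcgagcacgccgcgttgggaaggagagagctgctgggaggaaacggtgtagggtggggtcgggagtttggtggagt
Hells: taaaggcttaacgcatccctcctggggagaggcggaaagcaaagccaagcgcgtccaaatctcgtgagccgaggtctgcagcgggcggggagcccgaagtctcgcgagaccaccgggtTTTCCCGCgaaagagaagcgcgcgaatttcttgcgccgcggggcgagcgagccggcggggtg
The GENCODE gene models of Cdc6 and Hells begin further upstream than RefSeq's, so all of the Cdc6 stretch and part of the Hells stretch lie inside the annotated gene. The same holds for the bases nearest the start in the Cdk1 and Cdc20 stretches below. The next 4, from Mki67 (chr7:135716380-135716559), Top2a (chr11:99024190-99024369), Cdk1 (chr10:69352913-69353092) and Cdc20 (chr4:118437344-118437523), all on the - strand, hold CHR elements, and that of Cdk1 holds an E2F site as well.
Mki67: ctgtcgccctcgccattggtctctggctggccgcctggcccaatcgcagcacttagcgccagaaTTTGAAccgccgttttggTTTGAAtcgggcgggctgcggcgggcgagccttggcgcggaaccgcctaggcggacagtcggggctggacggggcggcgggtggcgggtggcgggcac
Top2a: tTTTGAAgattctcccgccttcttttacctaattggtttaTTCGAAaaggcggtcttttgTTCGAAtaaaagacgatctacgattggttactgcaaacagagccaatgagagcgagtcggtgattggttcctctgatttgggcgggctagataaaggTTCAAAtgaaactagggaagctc
Cdk1: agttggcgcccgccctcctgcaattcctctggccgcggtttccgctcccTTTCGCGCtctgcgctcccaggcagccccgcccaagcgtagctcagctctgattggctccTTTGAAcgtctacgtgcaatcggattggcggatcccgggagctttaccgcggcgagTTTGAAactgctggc
Cdc20: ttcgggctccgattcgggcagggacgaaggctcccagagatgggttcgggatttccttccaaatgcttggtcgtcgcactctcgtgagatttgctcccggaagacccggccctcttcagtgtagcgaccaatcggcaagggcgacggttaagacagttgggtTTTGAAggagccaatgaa

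Over windows of 300 bases around the start, an E2F site stood in 8 of 18 replication genes (44.4%) and in 1 of 15 mitosis genes (6.67%), against 2.60% of all 27025 genes in the table. A CHR element stood in 11 of 15 mitosis genes (73.3%) and in 4 of 18 replication genes (22.2%), against 21.7% of all genes. The CCAAT box stood in 13 of 15 mitosis genes (86.7%) and 13 of 18 replication genes (72.2%), against 41.1% of all genes. Both strands were searched and matches may overlap. They describe letters in a window, and no binding was measured.

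The libraries were 10x Genomics 3′ libraries with 100810942 to 174929328 unique molecular identifiers (UMIs, each a captured RNA molecule) and gave 49797 cells after filtering, with a median of 2728.5 to 7736 UMIs per cell. Cells were grouped without any of the 39 genes into 39 clusters and named from marker genes, and 9 clusters holding 9.01% of the cells stayed without a name. Between 10 and 52 cell barcodes were shared by any pair of libraries.

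In T and NK cells a pair of libraries stood apart in these clusters, which were made without the 39 genes. T and NK cells of vehicle replicates 1 and 2 and IPI-926 replicates 1 and 2 lay almost wholly in cluster 24 (99.38 to 100.0%), while those of vehicle replicate 3 and IPI-926 replicate 3 lay in cluster 25 (91.07% and 99.26%). Macrophages of the same 4 libraries were led by cluster 0, those of vehicle replicate 3 by cluster 15 (87.73%) and those of IPI-926 replicate 3 by cluster 34 (54.26%). The pair thus shared no leading cluster there. Of the neutrophils, 98.1% in vehicle replicate 3 lay in cluster 33. In IPI-926 replicate 3, 83.84% lay in cluster 16, as did 58.42% in IPI-926 replicate 1. Endothelial, mesothelial, perivascular, B and dendritic cells each formed a single cluster over all libraries, so the pair did not stand apart in them. The labels name no batch. In addition, IPI-926 replicate 3 alone held 2 fibroblast clusters led by Crabp1 (3846 and 1817 cells, 99.922% and 100.0% from that library). Comparisons of treatments below are therefore given also without this pair or with a fitted term for it, both chosen after the data were seen, and without the Crabp1 clusters where these matter.

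The plainest reading of division is the share of cells caught in it. A cell was counted as cycling when at least 2 different mitosis genes were detected after thinning it to 1000 UMIs, and cells with fewer UMIs were left out. Neutrophils, which no longer divide when mature, were taken as the level that free RNA gives. It lay between 0 of 600 cells in vehicle replicate 3 (an upper 95% exact binomial limit of 0.613%) and 3.06% of 98 cells in IPI-926 replicate 3 (exact interval 0.636 to 8.69%). The class included cluster 36, 10 cells of IPI-926 replicate 1 led by Camp, Elane and Mpo, of which 3 were cycling. Its level therefore need not come from free RNA alone, although neither end of the range is from that library. Intervals cover counting error only. Since the share is a score over the chosen genes, it is described here without a test.

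Among the cells named ductal epithelial, 9.25%, 15.6% and 2.60% were cycling in vehicle replicates 1, 2 and 3, and 14.8%, 11.4% and 10.7% in IPI-926 replicates 1, 2 and 3. The groups overlapped, and the lowest value, vehicle replicate 3 (73 of 2810 cells), lay below every other library. It was within the range of neutrophils over all libraries but above those of its own library. The 14.8% of IPI-926 replicate 1 rests on 4 of 27 cells (exact interval 4.19 to 33.7%). Cluster 9, left without a name although 7 ductal markers were detected in it, held 732 cells of this library, against 28 in the named class. Of the cluster 9 cells of IPI-926 replicate 1, 128 of 731 (17.5%) were cycling. In the same cluster the shares were 1.64%, 24.8% and 2.0% in vehicle replicates 1, 2 and 3 and 11.95% in IPI-926 replicate 2. The groups overlapped there too. The mean of the named class was 9.16 ± 6.51% (SD, n = 3) with vehicle and 12.3 ± 2.20% (SD, n = 3) with IPI-926. Without the pair set apart the means were 12.4 and 13.1% (n = 2 each), and without vehicle replicate 3 alone the difference went from 3.15 to -0.129 percentage points. Ductal cells lay in different clusters by library: 89.32% of those of IPI-926 replicate 3 were in cluster 17, and 35.51% and 12.85% of those of vehicle replicate 3 in clusters 10 and 28. Cluster 11 held 71.35% of those of IPI-926 replicate 2 and 56.88% of those of vehicle replicate 1. It had a median of 676 UMIs per cell, 3 ductal markers detected, and 656 of 2817 cells at the thinning depth. There 84 of 478 cells (17.6%) cycled in vehicle replicate 1, 1 of 29 in vehicle replicate 2 and 18 of 141 (12.8%) in IPI-926 replicate 2. In cluster 8, the one that 5 libraries shared with enough cells, the shares were 5.06%, 18.5% and 4.51% with vehicle and 11.3% and 2.63% in IPI-926 replicates 2 and 3, the last from 1 of 38 cells. Vehicle replicate 3 cycled at 0.619% in cluster 10 and at 0 of 137 cells in cluster 28 (an upper exact limit of 2.66%).

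Endothelial cells showed the same order of libraries. Their cycling shares were 3.69%, 14.3% and 0.547% with vehicle and 14.3%, 6.85% and 6.33% with IPI-926, so vehicle replicate 2 matched the highest treated library and vehicle replicate 3, with 3 of 548 cells, was the lowest. Mesothelial cells gave 9.56%, 17.9% and 1.85% against 13.8%, 10.4% and 7.35%. Perivascular cells gave 9.76%, 15.4% and 0 of 92 cells (an upper exact limit of 3.93%) against 17.1%, 6.38% and 17.1%. In all 4 of these classes vehicle replicate 3 was the lowest of the 6 libraries.

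Fibroblasts held the highest share of any named class in a single library. The shares were 4.74%, 10.4% and 0.794% with vehicle and 5.71%, 4.69% and 30.4% with IPI-926, the last over 4230 cells (exact interval 29.0 to 31.8%). That value came from the Crabp1 clusters, where 30.6% and 31.0% of cells were cycling. Without them the fibroblasts of IPI-926 replicate 3 gave 3.12%, from 2 of 64 cells, and all 3 treated libraries then lay between vehicle replicates 3 and 2.

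**Figure D1:**
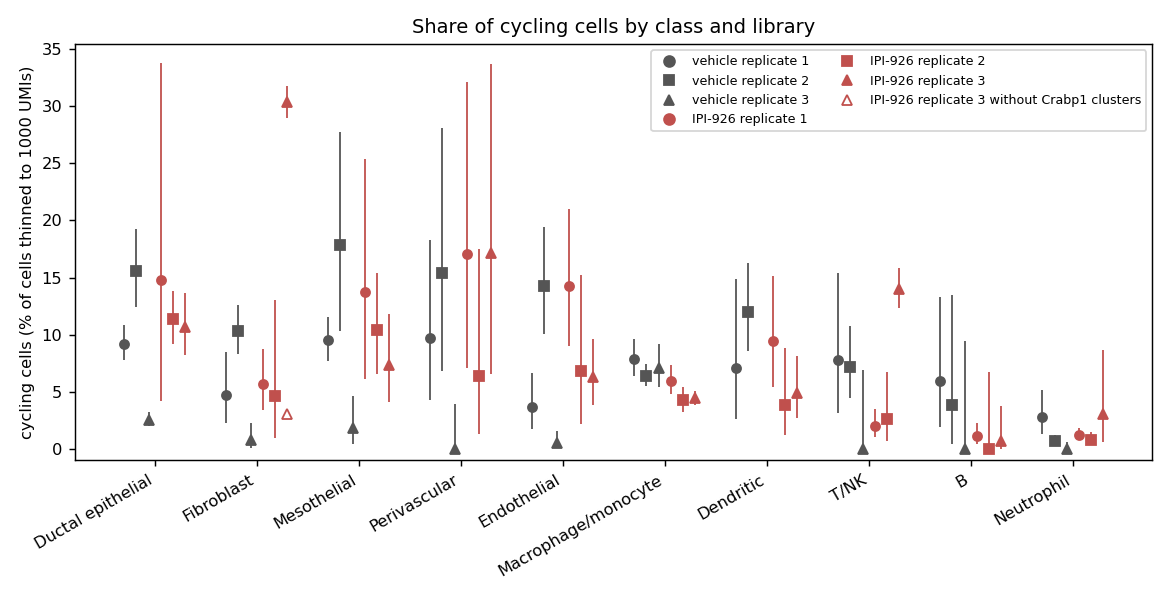
Share of cycling cells (percent, vertical axis) in each class and library, with exact 95% binomial intervals as bars; the open triangle is IPI-926 replicate 3 without its Crabp1 clusters. Vehicle replicate 3 is lowest in the ductal, fibroblast, mesothelial, perivascular and endothelial classes, and fibroblasts of IPI-926 replicate 3 reach 30.4%.

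Among macrophages and monocytes the treated libraries all lay below the vehicle libraries. The shares were 7.89%, 6.45% and 7.15% with vehicle and 6.01%, 4.29% and 4.47% with IPI-926, with means of 7.16 ± 0.72% and 4.93 ± 0.94% (SD, n = 3 each). Different clusters hold this class in different libraries, and they differed from each other: 5.77% of cells cycled in cluster 0, 6.26% in cluster 34 and 0.332% in cluster 4, which was led by Ly6c2 monocytes and held 38.97% of the macrophages of IPI-926 replicate 3. In the 4 libraries led by cluster 0 the means over the whole class were 7.17% and 5.15% (n = 2 each). Within cluster 0 the groups overlapped, at 4.10% and 6.61% with vehicle and 5.94% and 4.13% with IPI-926. In cluster 6, which held 44.77% of the macrophages of vehicle replicate 1 and 38.79% of those of IPI-926 replicate 2, the shares were 12.9%, 11.3% and 9.84% with vehicle and 9.76% and 4.57% in IPI-926 replicates 1 and 2. The nearest of these cluster 6 shares rest on 6 of 61 cells in vehicle replicate 3 and 4 of 41 in IPI-926 replicate 1. Their exact intervals were 3.70 to 20.2% and 2.72 to 23.1%. Over the whole class the nearest libraries, IPI-926 replicate 1 and vehicle replicate 2, had overlapping exact intervals of 4.80 to 7.41% and 5.56 to 7.43%.

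T and NK cells divided along the pair set apart. Their cycling shares were 7.78%, 7.22% and 0 of 51 cells with vehicle and 2.05%, 2.68% and 14.1% with IPI-926. In the 4 libraries of cluster 24 the treated values lay below the vehicle values (means 2.37 and 7.50%, n = 2 each). Within the pair, mostly cells of the CD8-led cluster 25, IPI-926 replicate 3 gave 227 of 1615 cells and vehicle replicate 3 none of 51, a number that allows a share of up to 6.98% (exact upper limit). B cells gave 5.95%, 3.92% and 0 of 37 cells with vehicle and 1.16%, 0 of 53 cells and 0.699% with IPI-926. Dendritic cells, with 19 cells in vehicle replicate 3 left out, gave 7.14% and 12.0% against 9.49%, 3.91% and 4.93%.

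Cells counted as cycling also carried replication RNA, although the rule for them did not use it. At least 2 replication genes were detected in 41.3% of cycling endothelial cells and 5.82% of the other endothelial cells, all libraries pooled and thinned alike. The shares were 38.8% and 5.82% in macrophages, 48.0% and 11.2% in T and NK cells, and 18.9% and 4.71% in ductal cells. They lay closer in fibroblasts, at 20.6% and 10.4%, and in perivascular cells, at 15.6% of 32 cells and 7.89%. Of the 1404 cycling fibroblasts, 727 and 555 were in the 2 Crabp1 clusters, so the fibroblast shares are mostly those of IPI-926 replicate 3. In neutrophils the shares were close, 4.48% of 67 cells against 3.14%. Cells near the limit were many: of 5958 ductal cells at this depth, 539 had 1 mitosis gene detected, 195 had 2 and 128 had 4 or more.

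Summed RNA uses all cells, whatever their depth. In ductal cells the mitosis genes together made up 3.66, 9.13 and 1.75 of every 10000 UMIs with vehicle and 10.65, 7.50 and 4.84 with IPI-926. The replication genes made up 3.16, 5.12 and 3.29 with vehicle and 5.35, 4.82 and 4.34 with IPI-926. The mitosis genes thus varied more between libraries than the replication genes, with a highest-to-lowest ratio of 6.08 against 1.70. The mitosis genes also varied more in every other class tested, with 22.49 against 3.38 in fibroblasts, 7.97 against 2.41 in endothelial cells, 20.86 against 3.99 in T and NK cells and 2.38 against 1.86 in macrophages, the smallest ratio for mitosis genes among the 10 classes tested. In neutrophils the mitosis sums were 8.37, 1.77 and 0.52 with vehicle and 2.72, 1.04 and 2.35 with IPI-926. The 8.37 of vehicle replicate 1 lay above its ductal, fibroblast (4.35), endothelial (3.42) and mesothelial sums (6.78). It lay below those of its macrophages (9.75), T and NK cells (14.81) and perivascular cells (20.53). The part of free RNA in these sums was not tested.

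**Figure D2:**
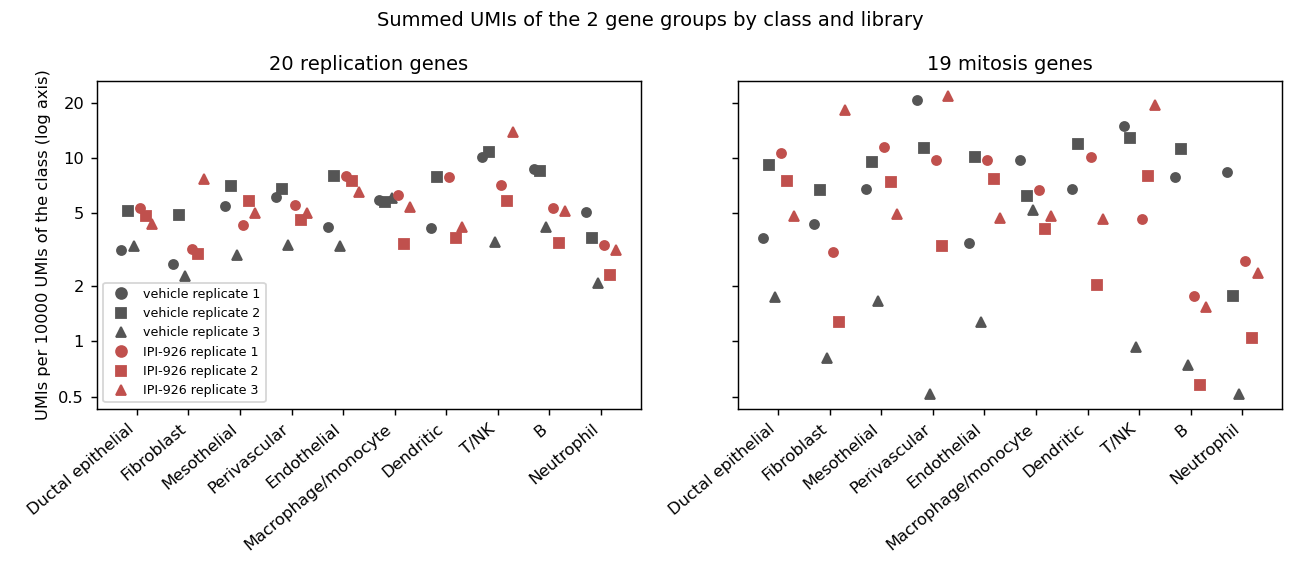
UMIs of the replication genes and of the mitosis genes per 10000 UMIs (vertical axes) in each class and library. The mitosis genes span 1.75 to 10.65 over ductal libraries, the replication genes 3.16 to 5.35, and vehicle replicate 3 is lowest for mitosis in most classes.

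The low values of vehicle replicate 3 covered nearly the whole mitosis list. Among genes with a mean of at least 5 scaled CPM (UMI counts scaled to the size of the library), all 19 mitosis genes had their lowest ductal level in this library, where 13.8% of all genes did. The count was 18 of 19 in endothelial cells (19.8% of all genes), 19 of 19 in mesothelial cells (21.8%), 14 of 19 in fibroblasts (19.2%) and 19 of 19 in T and NK cells (29.5%). For the replication genes it was 12 of 19 in ductal cells, 17 of 19 in endothelial cells and 19 of 20 in T and NK cells. The T and NK counts are near the floor, since the 56 such cells of vehicle replicate 3 held 41 replication and 11 mitosis UMIs in all. Macrophages differed, with 2 of 19 mitosis and 0 of 19 replication genes lowest there, beside 16.2% of all genes. Cells of vehicle replicate 3 also had the lowest median UMIs of the 6 libraries in the endothelial (3535), mesothelial (11021), perivascular (4299.5), T and NK (2006) and B cell classes (1953). In macrophages they had the second highest (10423), and in ductal cells they were not the lowest, at 15938 against 708 to 9681.5 in the 3 libraries below them. The part of depth in these low values was not tested.

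**Figure D3:**
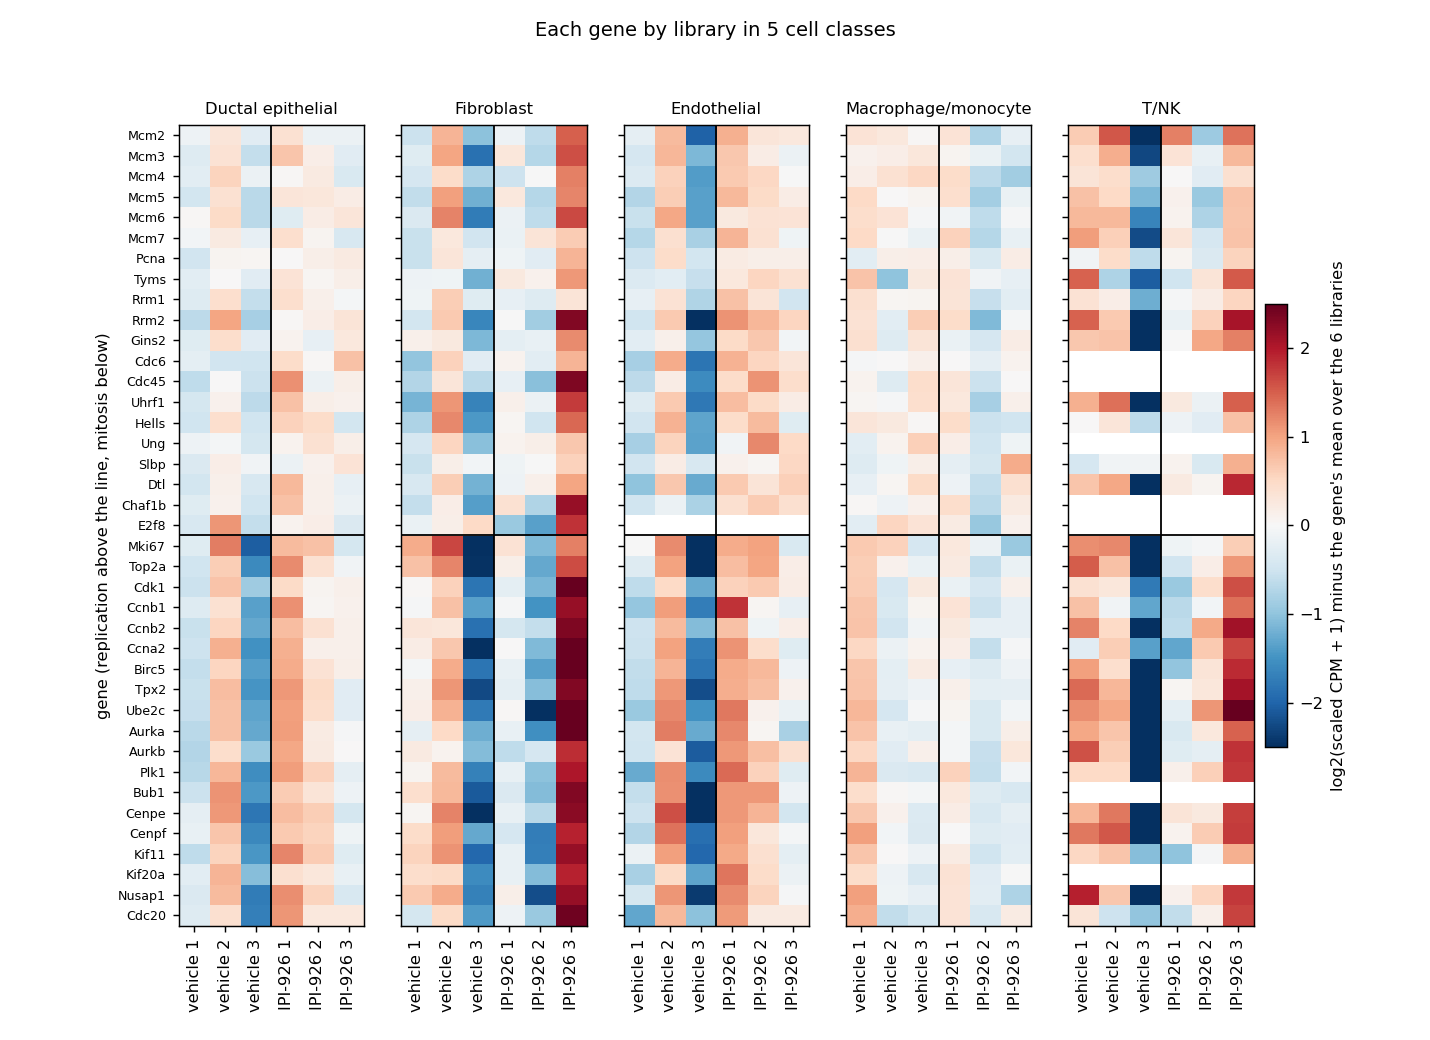
Level of each gene (rows, replication above the line) in each library (columns) of 5 classes, as log2(scaled CPM + 1) minus the mean of the gene over the 6 libraries; white cells were not tested. Vehicle replicate 3 is low in 4 classes but not in macrophages, and IPI-926 replicate 3 is high in fibroblasts and in T and NK cells.

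Treatment was then tested gene by gene, on UMI counts summed per library and class, with edgeR's quasi-likelihood test and Benjamini-Hochberg adjustment over all genes tested in the class. None of the 39 genes passed an adjusted p of 0.05 in any of the 10 classes or in all cells summed. Few genes of any kind did: 0 of 14437 in ductal cells (0.0%), 0 of 12300 in fibroblasts (0.0%), 0 of 11639 in mesothelial cells (0.0%), 0 of 10453 in endothelial cells (0.0%) and 0 of 13120 in macrophages (0.0%). The counts were 1 of 6773 in perivascular cells (0.0148%), 0 of 8494 in dendritic cells (0.0%), 1 of 7196 in T and NK cells (0.0139%), 1 of 2894 in B cells (0.0346%), 0 of 8586 in neutrophils (0.0%) and 0 of 17907 in all cells (0.0%). At an unadjusted p under 0.05 there were 494 genes in ductal cells, 435 in fibroblasts, 374 in endothelial cells, 238 in macrophages and 669 in all cells, and among them 1, 1, 3, 0 and 2 of the 39. DESeq2 called 25 genes in ductal cells (0.173%), 27 in fibroblasts (0.22%), 27 in mesothelial cells (0.232%), 9 in perivascular cells (0.133%), 3 in endothelial cells (0.0287%), 7 in macrophages (0.0534%), 1 in dendritic cells (0.0118%), 2 in T and NK cells (0.0278%), 1 in B cells (0.0346%), 18 in neutrophils (0.21%) and 114 in all cells (0.637%). Limma-voom called 2 genes in B cells (0.0691%) and none elsewhere, and neither tool called any of the 39.

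Although no gene passed, most fitted changes of the 39 lay on one side in several classes. In ductal cells 18 of 20 replication and 19 of 19 mitosis genes had a log2 fold change above 0, with medians of 0.32 and 0.65 beside -0.01 for all genes tested. In endothelial cells all 19 tested replication genes and all 19 mitosis genes did, with medians of 0.68 and 0.61 beside -0.01. In macrophages 2 of 20 and 1 of 19 did, with medians of -0.30 and -0.31 beside 0.01. Leaving out 1 library moved these medians. The mitosis median of macrophages was 0.005, with 10 of 19 genes above 0, without vehicle replicate 1, and -0.50 without IPI-926 replicate 1. Their replication median was -0.05 without IPI-926 replicate 2 and -0.54 without IPI-926 replicate 1. The endothelial mitosis median was 0.12 without vehicle replicate 3, 0.22 without IPI-926 replicate 1, 0.38 without vehicle replicate 1 and 1.83 without vehicle replicate 2, and the replication median 0.30 without vehicle replicate 3 and 1.27 without vehicle replicate 2. The ductal mitosis median was 0.25 without vehicle replicate 3, 0.30 without IPI-926 replicate 1 and 1.48 without vehicle replicate 2, where the replication median was 0.65. With each library cut to the same number of cells, which left 13 members of each list tested in endothelial cells, the replication median there was 0.32 and the mitosis median -0.44, with none of the 13 mitosis genes above 0. Ductal (0.67 and 0.83) and macrophage medians (-0.25 and -0.20) kept their side of 0. The genes of a list move together from library to library, so these counts are not independent observations.

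Without the pair set apart, the medians stayed above 0 in ductal cells (0.28 and 0.54) and in endothelial cells (0.40 and 0.37) and below 0 in macrophages (-0.21 and -0.50). They turned negative in fibroblasts, from 0.60 and 1.04 to -0.47 and -1.17, and in T and NK cells, from 0.11 and 0.41 to -0.59 and -0.96. The mitosis median of perivascular cells went from 0.11 to -1.38 and that of all cells summed from 0.93 to 0.12. No member passed in these 4 libraries either, with 0.0% of genes called in ductal cells, fibroblasts, endothelial cells and macrophages, 0.0415% in mesothelial cells, 0.0652% in B cells and 0.0136% in T and NK cells. With a term for the pair in the fit of all 6 libraries none passed (0.0443% of genes in perivascular cells, 0.0139% in T and NK cells, 0.0346% in B cells and 0.0% elsewhere), and the medians were 0.33 and 0.84 in ductal cells, 0.80 and 0.85 in endothelial cells and -0.31 and -0.31 in macrophages.

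**Figure D4:**
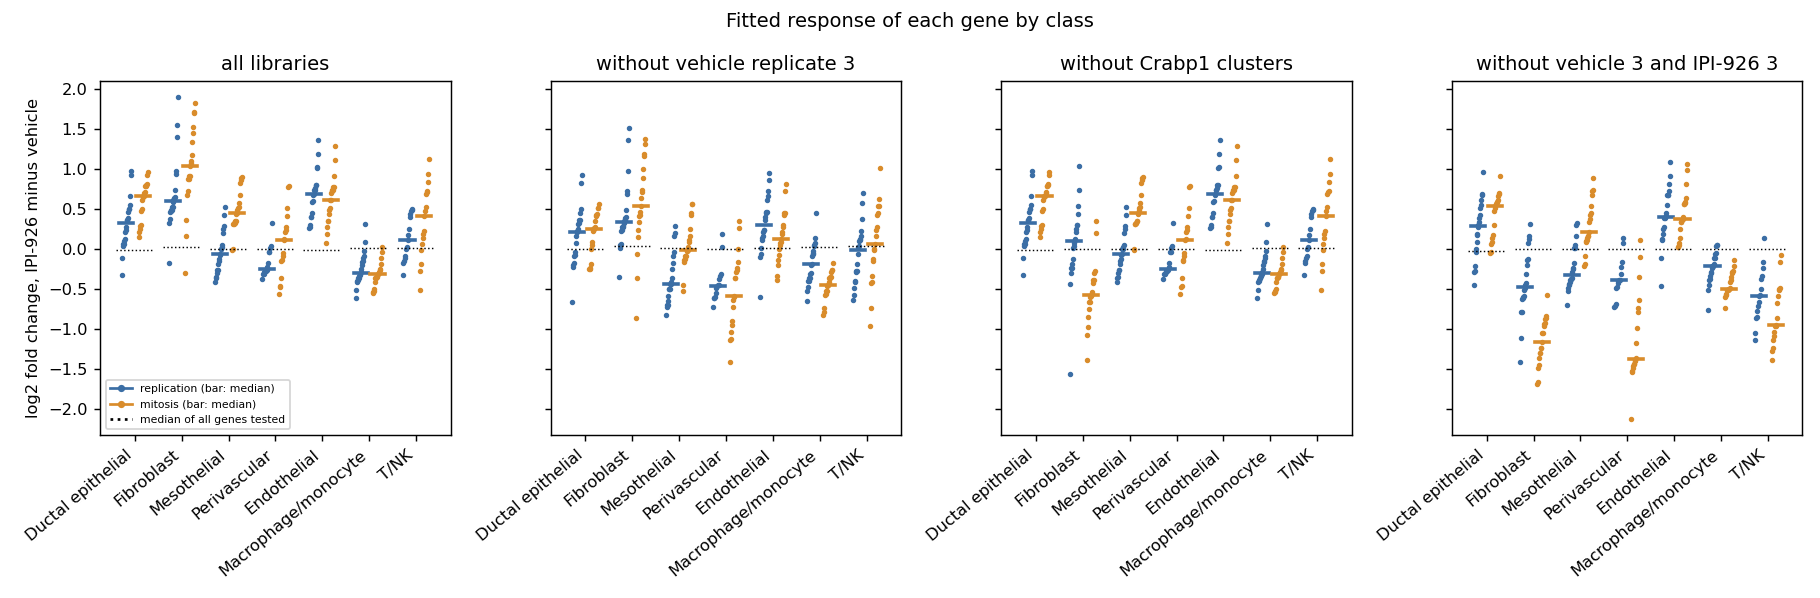
Fitted log2 fold change of each gene (points; IPI-926 minus vehicle) with the median of each group as a bar and of all genes tested as a dotted line, in all libraries and 3 reduced sets. Endothelial medians stay above 0 and macrophage medians below 0 in all 4 panels, and fibroblast mitosis genes go from 1.04 to -0.57 without the Crabp1 clusters.

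Tyms, which makes thymidylate for DNA synthesis (ENSMUSG00000025747, chromosome 5, 30058202 to 30073617, - strand, GRCm38), had the smallest unadjusted p of the 39 in endothelial cells. Its scaled CPM was 61.9, 65.4 and 52.5 with vehicle and 94.4, 115 and 103 with IPI-926. All 3 treated libraries lay above all 3 vehicle libraries, as did 4.57% of all endothelial genes at this level. The fitted change was 0.80 ± 0.17 (log2, SE; edgeR unadjusted p = 0.0012, adjusted p = 0.968) and 0.73 without the pair set apart. In fibroblasts Tyms also separated the groups, with 41.7, 42.0 and 19.2 scaled CPM against 54.0, 49.2 and 97.3, where 4.57% of genes did (0.97 ± 0.41, SE; edgeR adjusted p = 0.918). In mesothelial cells it was 80.5, 60.2 and 51.0 against 79.3, 93.2 and 84.7, and the groups overlapped.

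Chaf1b, the histone-placing factor (ENSMUSG00000022945, chromosome 16, 93883901 to 93906115, + strand), stood at 6.29, 8.29 and 4.97 scaled CPM in vehicle endothelial cells and at 12.7, 15 and 12.5 in treated ones. The groups were apart and the fitted change was 1.02 ± 0.30 (log2, SE; edgeR adjusted p = 0.968). Aurkb and Cdc45 were the other members whose endothelial groups did not overlap. For Aurkb, the kinase that corrects chromosome attachment, the values were 6.29, 12.0 and 1.42 against 20.6, 16.3 and 12.5, and the fitted change was 1.28 ± 0.60 (SE; edgeR adjusted p = 0.968).

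The other division genes of endothelial cells overlapped between the groups, mostly through vehicle replicate 2. Mki67, the common stain for dividing cells, was at 66.7, 154 and 9.22 scaled CPM with vehicle and 128, 135 and 51.2 with IPI-926. Top2a, which untangles chromosomes, was at 61.9, 157 and 11.7 against 132, 155 and 87.1, and Pcna at 75.4, 149 and 78.4 against 125, 120 and 119. Mcm5 was at 12.6, 33.7 and 7.81 against 38.5, 30.7 and 24.6. Cdk1 was at 25.6, 57.4 and 16.3 against 60.7, 64.6 and 46.4. Vehicle replicates 1 and 3 were low in each of these, and with equal cells per library the fitted changes of Mki67, Top2a and Cdk1 went from 0.44, 0.69 and 0.77 to -0.34, -0.36 and -0.27. Their endothelial cells also had the lowest median UMIs, 4752 and 3535 against 5062.5 to 11812 in the other 4, and the highest level of ductal marker RNA, 16.6 and 14.7 per 10000 UMIs against 1.5 to 4.5, and the part of these in the result was not tested.

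In ductal cells, Cdc6, which loads the helicase (ENSMUSG00000017499, chromosome 11, 98907801 to 98923940, + strand), had the smallest unadjusted p of the 39. It was at 4.53, 3.66 and 3.64 scaled CPM with vehicle and 7.96, 5.66 and 9.81 with IPI-926, and the change was 0.98 ± 0.33 (log2, SE; edgeR unadjusted p = 0.0205, adjusted p = 1.0). Tyms, Cdc6 and Ung were the members whose ductal groups did not overlap, 3 of 19 replication genes at this level (15.8%) beside 3.02% of all genes.

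The markers of dividing cells overlapped in ductal cells. Mki67 was at 45.0, 136 and 12.5 scaled CPM with vehicle and 96.9, 92.9 and 40.7 with IPI-926 (0.25 ± 0.78, SE). Top2a was at 38.8, 84.7 and 17.7 against 127, 72.4 and 51.8, Birc5 at 29.6, 65.4 and 16.6 against 86.8, 58.3 and 49.6, and Cdc20 at 19.2, 32.3 and 6.70 against 53.5, 29.6 and 29.4. The replication genes spread less: Pcna was at 52.3, 77.2 and 76.1 against 74.5, 81.3 and 86.2, Mcm5 at 11.2, 20.8 and 9.46 against 19.5, 19.3 and 17.9, and Uhrf1 at 9.06, 13.7 and 7.73 against 21.7, 14.1 and 13.6. Vehicle replicate 3 was the lowest library for each of these except Pcna.

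Fibroblast levels followed the Crabp1 cells. Cdc20 was at 10.51, 20.9 and 4.85 scaled CPM with vehicle and 13.4, 7.21 and 83.0 with IPI-926, and Aurka, the spindle pole kinase, at 4.67, 8.43 and 1.85 against 4.82, 1.31 and 41.3. IPI-926 replicate 3 was highest for 18 of 19 mitosis and 17 of 18 replication genes, where it was highest for 36% of all genes. Without the Crabp1 clusters the fitted change of Cdc20 went from 1.53 to -0.30 and that of Aurka from 1.69 to -0.57. Without the pair set apart all 19 mitosis genes lay below 0, among them Mki67 at -1.49 and Top2a at -1.36, and 10 of them had an unadjusted edgeR p under 0.05, beside 387 of 12242 genes. Fibroblast Mki67 itself was at 45.5, 76.8 and 1.85 with vehicle and 30.5, 10.49 and 57.7 with IPI-926.

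In macrophages Mcm3 and Mcm6, subunits of the helicase, were the members whose treated libraries all lay below all vehicle libraries, where 1.81% of genes did. Mcm6 was at 33.7, 31.2 and 24.0 scaled CPM with vehicle and 22.9, 15.3 and 23.9 with IPI-926 (-0.52 ± 0.24, SE; edgeR adjusted p = 1.0). Mcm3 was at 58.9, 61.6 and 66.3 against 57.4, 48.5 and 39.6 (-0.36 ± 0.20, SE). For Mcm6 the gap between the groups was 24.0 against 23.9, and for Mcm3 58.9 against 57.4. Mki67 was at 175.3, 166 and 81.8 against 132, 99.4 and 57.9, Top2a at 145, 102 and 83.9 against 111, 62.1 and 84.2, Pcna at 91.9, 122 and 124 against 122, 84.3 and 125, and Mcm5 at 34.1, 23.9 and 25.1 against 32.1, 12.7 and 21.0. The groups overlapped for each of these. All 19 mitosis genes were highest in vehicle replicate 1, where 13.3% of all genes were; ductal marker RNA in neutrophils, a sign of free RNA, was also highest there, at 97.3 per 10000 UMIs against 17.0 to 51.2 in the other libraries, and its part in the result was not tested.

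B cells gave the lowest fitted change of any of the 39 genes in the tests of all libraries. Top2a was at 158, 268 and 42.7 scaled CPM with vehicle, from 38, 54 and 3 UMIs, and at 51.3, 14.5 and 47.8 with IPI-926, from 109, 3 and 15 UMIs. The change was -2.02 ± 0.50 (log2, SE; edgeR unadjusted p = 0.000807, adjusted p = 0.779), and vehicle replicate 3 overlapped the treated libraries. Only 3 replication genes and 1 mitosis gene had enough counts to be tested in this class. Without vehicle replicate 3, Mki67, Top2a and Cenpf passed (-2.96, -2.33 and -3.45), where 0.236% of genes did, and without the filter on low counts Mki67, Cenpf, Top2a and Birc5 passed, where 0.194% did.

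T and NK cells again split by the pair set apart. Mki67 was at 284, 294 and 16.8 scaled CPM with vehicle and 118, 124 and 194 with IPI-926, and Top2a at 407, 237 and 16.8 against 102, 159 and 301. In the 4 libraries of cluster 24 the change of Mki67 was -1.24 ± 0.44 and that of Top2a -1.28 ± 0.47 (log2, SE; edgeR adjusted p = 1.0 for both), and none of the 17 tested mitosis genes lay above 0. Vehicle replicate 3 brought 56 T and NK cells, so that its values of 16.8 scaled CPM rest on few counts.

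In all cells summed, every one of the 39 genes had a fitted change above 0, with medians of 0.61 and 0.93, and in such sums a change in the number of cells of a dividing type and a change in the RNA per cell cannot be told apart. Ung, Chaf1b, Ccnb2, Cenpf and Cdc20 did not overlap between the groups, where 3.0% of genes did the same. Ccnb2, a cyclin of Cdk1, was at 19.5, 21.0 and 9.90 scaled CPM with vehicle and 27.6, 24.7 and 59.8 with IPI-926 (1.15 ± 0.46, SE; edgeR adjusted p = 0.999). Without the Crabp1 clusters the mitosis median was 0.46, without both these and vehicle replicate 3 it was 0.13, and with equal cells per library it was 0.09, with a replication median of -0.08.

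Other genes of the same pathways, taken from 3 further lists, were read beside the 39, and none passed in any class by edgeR. Of 29 replication pathway genes tested in endothelial cells 27 lay above 0 and 5 had an unadjusted p under 0.05, among them Gmnn, which blocks relicensing (0.84 ± 0.26, log2, SE). In ductal cells the leading ones were Tk1, a thymidine kinase (0.99 ± 0.29), and Cdca3, which promotes entry into mitosis (1.35 ± 0.52). In macrophages 5 of 35 mitosis pathway and 6 of 30 replication pathway genes lay above 0. Among the regulators, which include the cyclins and inhibitors that act before replication, E2f1 led in fibroblasts (1.52 ± 0.49), and 15 of 30 in ductal cells and 19 of 28 in endothelial cells lay above 0.

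Cell types within a tumour were then compared by the difference of log2 CPM between ductal cells and another class of the same library. The test was limma with Benjamini-Hochberg adjustment over all genes. It covered 19 mitosis genes against each class, and 20 replication genes, or 19 against endothelial cells. Many genes of any kind differed between classes. Several counts below lie near the share of all genes, so they are not particular to these genes. Among them are the replication genes lower in ductal cells than in macrophages and those higher than in fibroblasts. Against endothelial cells, 9 of 19 replication genes were lower in ductal cells, where 38.9% of all 11158 genes were, and none was higher, where 21.2% were. Tyms led at -1.08 ± 0.12 (log2, SE; limma adjusted p = 0.000104), followed by Mcm3 at -1.0 ± 0.14. Of the mitosis genes, Ube2c (0.81 ± 0.14) and Cdc20 (0.78 ± 0.23), both of the machinery that destroys the cyclins, were higher in ductal cells, and Cdk1 (-0.57) and Aurkb (-0.61) were lower. These calls depended on the fit. The median of all genes lay at -0.24 here and at 0.04 in edgeR with the library as a block. The first scales each class by TMM on its own and the second scales both classes together. In the second only Tyms (-0.86) and Mcm3 (-0.78) of the replication genes were lower (27.2% of all genes were) and 9 mitosis genes, Ube2c and Cdc20 among them, were higher (29.6% were) and none was lower.

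Against macrophages, Mcm3 (-1.25 ± 0.16), Mcm4, Pcna, Slbp and E2f8 were lower in ductal cells, where 23.3% of genes were, and Hells was higher (0.70 ± 0.19), where 38.1% were. Cdc20 was higher (1.20 ± 0.32), and Mki67 (-1.0 ± 0.28), Top2a and Aurkb were lower. Against T and NK cells, 8 replication genes were lower, among them Slbp (-1.44 ± 0.20), Mcm6 and Mcm4, as were Kif11 (-1.71 ± 0.41), Mki67 and Top2a, where 20.1% of genes were, and none was higher, where 26.0% were. Against neutrophils, 11 replication and 13 mitosis genes were higher, where 46.1% of all genes were, led by Tpx2 (2.41 ± 0.58) and Hells (2.37 ± 0.56). Slbp alone was lower (-0.87 ± 0.18), where 22.1% were. With edgeR and the library as a block, 7 replication genes were lower than in macrophages (28.0% of genes) and Hells no longer passed, 10 were lower than in T and NK cells (19.7%), and 7 replication and 11 mitosis genes were higher than in neutrophils (36.6%), where Pcna as well as Slbp was lower (29.6%). The 10 genes that differed from macrophages became 18 without vehicle replicate 2 and 6 without vehicle replicate 1. The 11 that differed from T and NK cells became 6 without vehicle replicate 1 and 7 without vehicle replicate 2, and the 25 that differed from neutrophils became 14 without vehicle replicate 2 or IPI-926 replicate 2.

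Against fibroblasts, Mcm2, Mcm5, Mcm7 and Chaf1b were higher in ductal cells (0.93 to 1.48) and Rrm1 was lower (-0.85 ± 0.16), where 22.7% and 24.4% of genes were. No mitosis gene differed. Without the Crabp1 clusters 21 of the 39 differed, where 55.9% of genes did, and without IPI-926 replicate 3 it was 25. Without vehicle replicate 1, vehicle replicate 3, IPI-926 replicate 1 or IPI-926 replicate 2 it was 2 each time. The response to IPI-926 was compared between ductal cells and each of these 5 classes by the treatment term of the same limma fits, and no gene of any kind passed (0.0% in each), although 278 to 464 genes had an unadjusted p under 0.05.

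**Figure D5:**
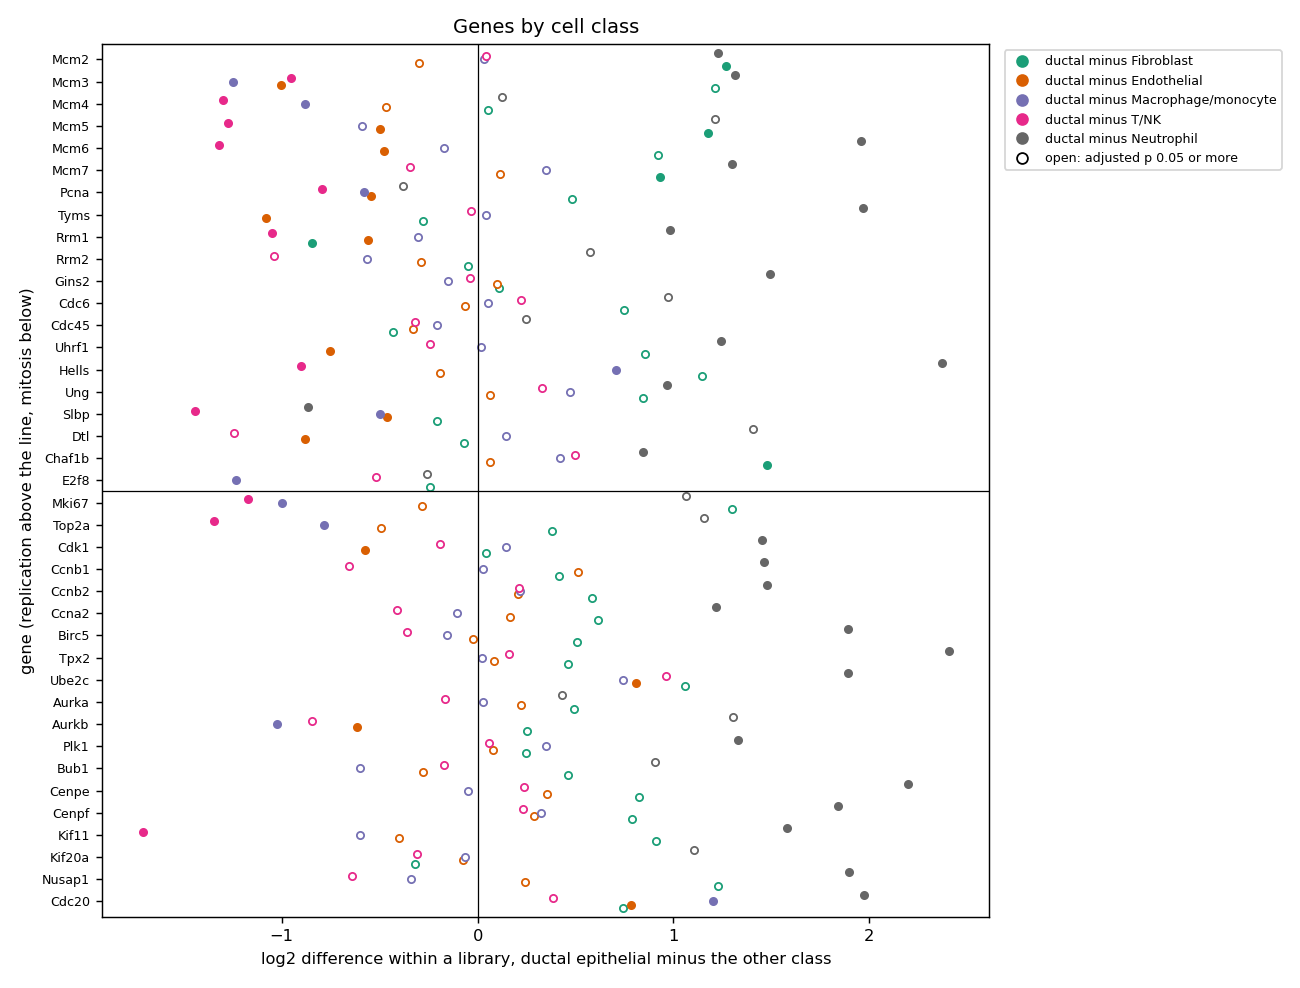
Difference in log2 CPM within a library, ductal cells minus the other class, for each gene (rows) and 5 classes (colours); filled points pass an adjusted p of 0.05 by limma. Most points against neutrophils lie above 0, and the filled points against endothelial, macrophage and T/NK cells lie mostly below 0.

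Detection over all cells, thinned alike, ranked the genes themselves. Pcna was the replication gene found in most cells overall (8.67%) and Ube2c the mitosis gene (5.26%), while Cdc6 was found in 0.368% and Bub1 in 0.663%. Among the 10 classes tested for treatment, fibroblasts had the highest share for 17 of the 19 mitosis genes, and T and NK cells for 9 of the 20 replication genes, with IPI-926 replicate 3 supplying most cells of both classes. Pcna and Slbp were found in 9.58% and 6.35% of neutrophils, close to their share over all cells, while Tyms was found in 0.551% of neutrophils and 5.30% of endothelial cells. Mki67 was found in 4.07% of neutrophils, the most of any mitosis gene there, and Aurkb in 0.092%.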

How the data were processed

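Tumour tissue of 3 vehicle and 3 IPI-926 libraries was measured by 10x Genomics Single Cell 3′ v3 sequencing. The deposited files hold raw UMI counts per gene and barcode, made with Cell Ranger 6.1.2 per the file headers. Version 2.1.1 and the mm10 build stand in the submitters' processing notes, and which version made the counts is not settled here. The 39 genes and all further lists were chosen with earlier results of these data known. The genes given by name in each class are Mki67, Top2a, Pcna, Mcm5 and the 2 replication and 2 mitosis genes of smallest unadjusted p, beside others chosen after their values were seen.

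A barcode was kept from 500 UMIs and 300 genes upward if mitochondrial UMIs made up no more than 20%, and likely doublets were removed at 0.8% per 1000 barcodes by scoring against simulated doublets. Cells were clustered (scanpy 1.11.5, 2000 variable genes, 30 components, 15 neighbours, Leiden resolution 1) with the cell cycle genes left out. Each named cluster had at least 3 markers of its class detected. That number alone did not give a name: clusters 9 (7 ductal markers), 21 (6 endothelial) and 38 (4 ductal) stayed without one. Counts were summed per library and class with at least 20 cells. They were tested with edgeR 4.0.16 (quasi-likelihood, TMM scaling, low counts filtered) in R 4.3.3, with DESeq2 1.42.0 and limma-voom (limma 3.58.1) as alternatives and Benjamini-Hochberg adjustment at 0.05. Class differences used limma on log2 CPM with a prior count of 2, with edgeR and the library as a block as the alternative. The code was tested on simulated data. Other alternatives were cell filters, thinning, equal cells per library, doublets kept, cell cycle genes in the clustering and leaving out libraries or clusters. Some items of the genotype and of the gene lists are not reported here.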

Additional observations from a re-analysis of the deposited data

Results flagged for a closer look

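Of the 9 clusters left without a class name, 4 had at least 1 library whose share of cycling cells had an exact lower limit above the highest upper limit of neutrophils (8.69%), and none of them enters a comparison above by class. Clusters 22 (5.84%), 31 (7.41%) and 38 (5.98%) also lay above the highest neutrophil share of 3.06% but did not meet that limit. Cluster 2, with 289 cells and 99.654% of them from vehicle replicate 2, had 72 cycling cells of 180 at the thinning depth (40.0%). Igfbp3, Sfrp1, Mki67 and Top2a were among its leading genes, although the cell cycle genes were left out of the clustering. Mki67 and Top2a also enter the cycling share, so the leading genes and the share are not independent readings. The median of cluster 2 was 1256 UMIs per cell. Cluster 5, with 640 cells, had 68 of 363 (18.73%), and cluster 18, with 427 cells, had 74 of 416 (17.79%). Cluster 9, with 1537 cells and a median of 42863 UMIs, had 219 of 1512 (14.48%). Its leading class was ductal epithelial, with 7 markers detected, and 47.625% of its cells came from IPI-926 replicate 1. What these cells are was not tested.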

How the results depend on the processing

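No paired analysis was possible because the replicate numbers only name the libraries and the labels tie no vehicle library to an IPI-926 library. Over the settings tried, 261 of 276 counts of genes called stayed equal or close, and 1161 of 1245 fold changes of named genes kept their direction and side of the threshold. Of 512 log2 differences between classes, 402 still passed and 110 no longer did. For cycling shares, 164 of 174 differences moved by less than the replicate spread, whatever their sign. That spread was wide, so some changes of sign count as kept. In fibroblasts (spread 10.824 points) the difference went from 8.287 to -0.789 without the Crabp1 clusters. Without a filter on low counts 4 of the 39 genes passed in B cells, and leaving out 1 library gave 0 to 3 there. The cause of the changes below was not tested.

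Differences in cycling share (percentage points, IPI-926 minus vehicle) moved as follows. At 2000 UMIs the ductal difference was 9.875 and the neutrophil one -1.85, without thinning the mesothelial one was 10.034, and counting cells with at least 1 mitosis gene gave -3.134 in macrophages and 4.606 in neutrophils. With the cell cycle genes in the clustering the dendritic difference was 0.135. Without the pair set apart it was -5.131 in T and NK cells and -2.371 in all cells, and without the Crabp1 clusters and vehicle replicate 3 it was -3.04 in fibroblasts and -1.909 in all cells, settings chosen after seeing the data. Leaving out 1 library gave -0.099 (IPI-926 replicate 3) to 12.735 (IPI-926 replicate 2) in fibroblasts, -0.648 to 4.297 by the same libraries in all cells, and -2.632 (IPI-926 replicate 3) to 3.372 (IPI-926 replicate 1) in T and NK cells.

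Fold changes (log2) that changed sign were mostly small. Without the Crabp1 clusters and vehicle replicate 3, where 3 genes passed in B cells, Mki67 was -0.242 in ductal, -0.083 in endothelial and -0.237 in all cells, Top2a -0.134 in mesothelial cells, Pcna 0.047 in macrophages and -0.059 in T and NK cells, and in fibroblasts Mki67 was -1.634, Top2a -0.929, Mcm5 -0.377, Cdc20 -0.68 and Aurka -0.955. Without the Crabp1 clusters alone, fibroblast Top2a was -0.395, Cdc20 -0.304 and Aurka -0.567. Without the pair set apart, fibroblast Top2a was -1.361, Pcna -0.139, Mcm5 -0.624, Cdc20 -0.576 and Aurka -0.929, perivascular Ccnb2 -0.104, T and NK cell Pcna -0.338, Dtl -0.717, Cdc20 -0.081 and Plk1 -0.17, and Mki67 of all cells -0.148. A term for the pair gave 0.445 for Mki67 and 0.19 for Mcm5 in mesothelial cells. With equal cells per library, Mki67 was -0.337, Top2a -0.364 and Cdk1 -0.273 in endothelial cells, Mki67 -0.418, Top2a -0.079, Pcna -0.078 and Mcm5 -0.223 in all cells, and Mki67 0.352, Pcna 0.063 and Mcm5 0.014 in mesothelial cells. Limma-voom gave 0.594 for Mki67 in fibroblasts, 0.599 for Mki67 and 0.216 for Mcm5 in mesothelial cells, 0.054 for Top2a in T and NK cells and 0.26 for Tpx2 in neutrophils. In mesothelial cells Mki67 was also 0.006 by DESeq2, 0.0 without the low-count filter and 0.081 with the cell cycle genes in the clustering, where Mcm5 was 0.04. With doublets kept fibroblast Top2a was -0.027, and without TMM scaling Pcna was -0.01 in T and NK cells.

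Leaving out each library in turn gave these ranges. Mki67 ran from -0.242 to 1.434 in ductal, -0.947 to 0.533 in fibroblasts, -0.527 to 0.956 in mesothelial, -0.083 to 1.491 in endothelial and -0.29 to 0.892 in all cells. Top2a ran from -0.84 to 0.786 in fibroblasts, -0.134 to 1.083 in mesothelial and -0.798 to 0.441 in T and NK cells. Pcna ran from -0.078 to 0.642 in fibroblasts, -0.359 to 0.138 in mesothelial cells, -0.151 to 0.139 in macrophages and -0.138 to 0.475 in T and NK cells. Mcm5 ran from -0.226 to 1.657 in fibroblasts, -0.415 to 0.439 in mesothelial and -0.593 to 0.127 in T and NK cells. Cdc20 ran from -0.206 to 2.236 and Aurka from -0.563 to 2.395 in fibroblasts, Cenpf from -0.788 to 0.016 in macrophages, Mcm6 from -1.358 to 0.215 in dendritic cells, Dtl from -0.442 to 1.029 in T and NK cells, and Tpx2 from -1.846 to 0.944 and Ccnb2 from -0.237 to 1.591 in neutrophils. Counts of genes differing from ductal cells ran from 2 to 25 for fibroblasts, 6 to 18 for macrophages, 6 to 14 for T and NK cells and 14 to 30 for neutrophils, and without the Crabp1 clusters 21 differed for fibroblasts. Few cells limit ductal IPI-926 replicate 1 and T and NK vehicle replicate 3.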
